A study of Mus musculus with 12 samples.

Results

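The 9 genes described here belong to the interleukin-1 (IL-1) axis and to the inflammatory signals around it: the receptor antagonist Il1rn, the receptor chains Il1r1, Il1rap and Il1rl1, the cytokine Il33, the IL-6 family cytokines Il6, Lif and Il11, and the prostaglandin synthase Ptgs2. They were matched by symbol among the 37991 Ensembl genes counted in RNA-seq of mouse embryonic fibroblasts (MEFs), the fibroblasts grown from whole embryos. The list was chosen by the measured differences of its genes between these same samples, so the values below are a description and no p-value is given for a listed gene. The 12 samples were primary MEFs of the FVB strain at passage 3, from embryos at day 13.5, with 3 samples in each of 4 groups. Wild-type MEFs carried the normal E2f1 gene, and E2f1 3KR/3KR MEFs (3KR below) were homozygous for a knock-in allele, made with a zinc finger nuclease, in which the lysines that become acetylated in E2F1 are replaced by arginine. Each genotype was left untreated or was given neocarzinostatin (NCS), a radiomimetic drug that breaks DNA, at 250 ng/ml for 3 h. The labels do not say whether the samples of a group came from separate embryos or cultures. The errors below therefore rest only on the variation between these samples.

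IL-1 binds IL1R1, which then recruits the shared chain IL1RAP and signals through MyD88 and NF-kappaB, while the antagonist encoded by Il1rn occupies IL1R1 without bringing in the shared chain. IL-33, an alarmin kept in the nucleus of stromal cells, acts in the same way through ST2, the product of Il1rl1, together with IL1RAP. IL-6, LIF and IL-11 bind receptors that contain gp130 and signal through STAT3, and fibroblasts are a known source of all of them. Ptgs2 encodes the inducible cyclooxygenase COX-2, the first enzyme on the way to prostaglandins.

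The promoters of the 4 cytokine and prostaglandin genes that rose most after NCS in 3KR MEFs, and of Il1rn, which fell, are shown to place them beside their values. Each line holds the 250 bases before a transcription start in RefSeq (GRCm38.p6), written in the direction of the gene. For each gene this was the RefSeq start nearest to the gene start in the GENCODE annotation. Matches at other starts of these genes are not given. Capitals mark matches to the NF-kappaB consensus, to the AP-1 motif TGANTCA or to the C/EBP motif TTGCNNAA on either strand.
Il6, chr5:30012864-30013113, plus strand: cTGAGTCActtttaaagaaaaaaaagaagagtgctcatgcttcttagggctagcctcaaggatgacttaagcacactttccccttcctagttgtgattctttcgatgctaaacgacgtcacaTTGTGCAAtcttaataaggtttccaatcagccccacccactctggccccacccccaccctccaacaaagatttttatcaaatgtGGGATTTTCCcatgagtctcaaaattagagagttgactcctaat
Lif, chr11:4257318-4257567, plus strand: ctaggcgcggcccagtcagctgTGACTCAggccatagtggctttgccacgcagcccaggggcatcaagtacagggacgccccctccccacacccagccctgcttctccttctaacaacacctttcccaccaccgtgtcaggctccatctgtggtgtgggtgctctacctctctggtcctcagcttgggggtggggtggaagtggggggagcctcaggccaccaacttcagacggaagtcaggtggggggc
Il11, chr7:4782858-4783107, minus strand: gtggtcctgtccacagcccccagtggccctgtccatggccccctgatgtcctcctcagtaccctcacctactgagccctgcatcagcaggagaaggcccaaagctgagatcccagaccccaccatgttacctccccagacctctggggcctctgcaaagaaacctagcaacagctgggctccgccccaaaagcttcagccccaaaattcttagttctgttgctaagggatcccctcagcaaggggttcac
Ptgs2, chr1:150099781-150100030, plus strand: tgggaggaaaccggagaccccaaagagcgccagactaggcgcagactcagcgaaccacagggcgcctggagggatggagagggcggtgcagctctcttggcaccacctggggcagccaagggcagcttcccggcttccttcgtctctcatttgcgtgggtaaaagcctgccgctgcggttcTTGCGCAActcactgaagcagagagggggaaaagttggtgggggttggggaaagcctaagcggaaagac
Il1rn, chr2:24336610-24336859, plus strand: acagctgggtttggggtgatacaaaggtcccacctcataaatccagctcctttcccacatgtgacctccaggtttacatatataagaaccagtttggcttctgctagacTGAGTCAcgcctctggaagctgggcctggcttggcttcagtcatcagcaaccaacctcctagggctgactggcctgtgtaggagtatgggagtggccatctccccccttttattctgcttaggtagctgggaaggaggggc
The Il6 window held 1 NF-kappaB match 44 bases before the start, 1 C/EBP match at 128 bases and 1 AP-1 match at 249 bases. Lif held an AP-1 match at 228 bases, Il1rn held an AP-1 match at 141 bases, and Ptgs2 held a C/EBP match at 69 bases that reads the same on both strands. The Il11 window held no match. Of 32851 RefSeq windows of this length, 3.90% held the NF-kappaB consensus, 6.75% the AP-1 motif and 9.56% the C/EBP motif. The windows of all 9 genes were searched, and the other matches were a C/EBP motif in Il1r1 and in Il1rl1 and a TATA box (TATAAA, gene strand only, in 7.59% of windows) 203 bases before Il33. The STAT motif TTCNNNGAA (7.02% of windows), the ISRE core GAAANNGAA (7.13%) and the CRE TGACGTCA (1.55%), each searched on both strands, were in 0 of the 9. A match is a string of letters and was not tested for binding.

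Each sample had 33203757 to 45279321 counted reads, and 15327 genes passed the filter on low counts, among them all 9 listed here. Replicate 3 of the wild-type MEFs stood apart from replicates 1 and 2 in both treatments, so values that rest on it are given with and without it. E2f1 itself was at 1042 to 1296 normalized counts in wild-type and 1111 to 1259 in 3KR MEFs, which does not check the label of a point mutation. Xist was at 32.3 to 62.5 in wild-type and 30590.1 to 35635 in 3KR MEFs and the Y-linked gene Ddx3y at 5370.3 to 5822 and 7 to 16.2, so genotype and sex cannot be told apart. The study describes 1 3KR line, and the libraries hold bulk RNA, in which fewer cells of a type and less RNA per cell cannot be told apart. The 9 fibroblast markers were detected in every group, with a summed level of 1889479 to 2102845 normalized counts, and between untreated genotypes 7 of them were higher and 2 lower in 3KR. Of all tested genes, 22.1% were higher and 23.6% lower in that comparison.

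Without treatment, 3KR MEFs had more RNA for the receptors Il1r1 and Il1rl1 and less for Il1rap, Il33, Il11 and Ptgs2. At a false discovery rate (FDR) of 0.05 in edgeR, 3 of the 9 genes were higher in untreated 3KR than in untreated wild-type MEFs and 5 were lower, where 22.1% and 23.6% of all tested genes were higher and lower. After NCS, 3 were higher and 6 lower, against 22.9% and 23.6% of all genes. The median log2 fold change of the 9 genes was -0.24 without treatment and -0.45 after NCS, beside 0.00 over all tested genes in both. These counts describe how the list was put together and say nothing further about it.

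**Figure D1:**
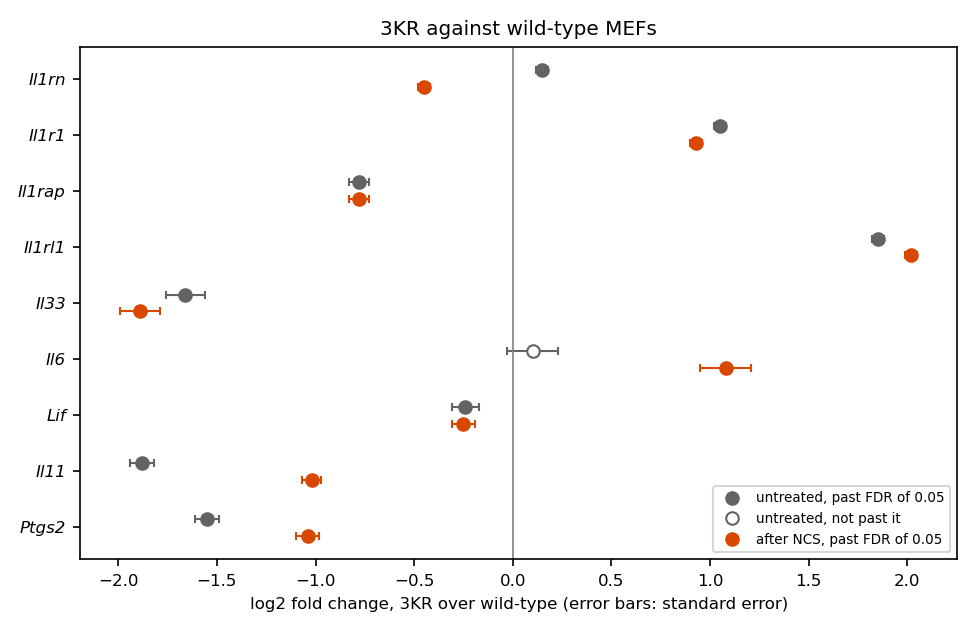
Log2 fold change of 3KR over wild-type MEFs (x axis) for each of the 9 genes (y axis), untreated in grey and after NCS in orange, with bars for the standard error and filled points past an FDR of 0.05. Il1rl1 and Il1r1 lie to the right in both conditions, Il11, Ptgs2, Il33 and Il1rap lie to the left, and Il1rn changes side, from 0.15 to -0.45.

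Levels of different genes were compared per kilobase of exon, merged over all transcripts of a gene in GENCODE M21. The order therefore depends on that merged length, which was 11360 bases for Il1rap and 2886 for Il33. On this scale, the mean level in untreated wild-type MEFs was 6610 normalized counts per kilobase for Ptgs2, 1450 for Il1rn, 1410 for Il1rl1, 821 for Il11 and 375 for Il1r1. The lowest were Il33 at 183, Il1rap at 163, Lif at 160 and Il6 at 60.5. The samples of Il1rn and Il1rl1 overlapped on this scale, as did those of Lif with both Il1rap and Il33. In untreated 3KR MEFs the order was different, with Il1rl1 first at 5080 per kilobase, followed by Ptgs2 at 2270, Il1rn at 1610 and Il1r1 at 783. There, Il11 stood at 224, Lif at 136, Il1rap at 95.1, Il6 at 65.1 and Il33 at 58.4. The primary IL-1 ligands were near the floor in all groups: the group means of Il1a were 1.64 to 8.02 normalized counts and those of Il1b 0 to 1.04.

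**Figure D2:**
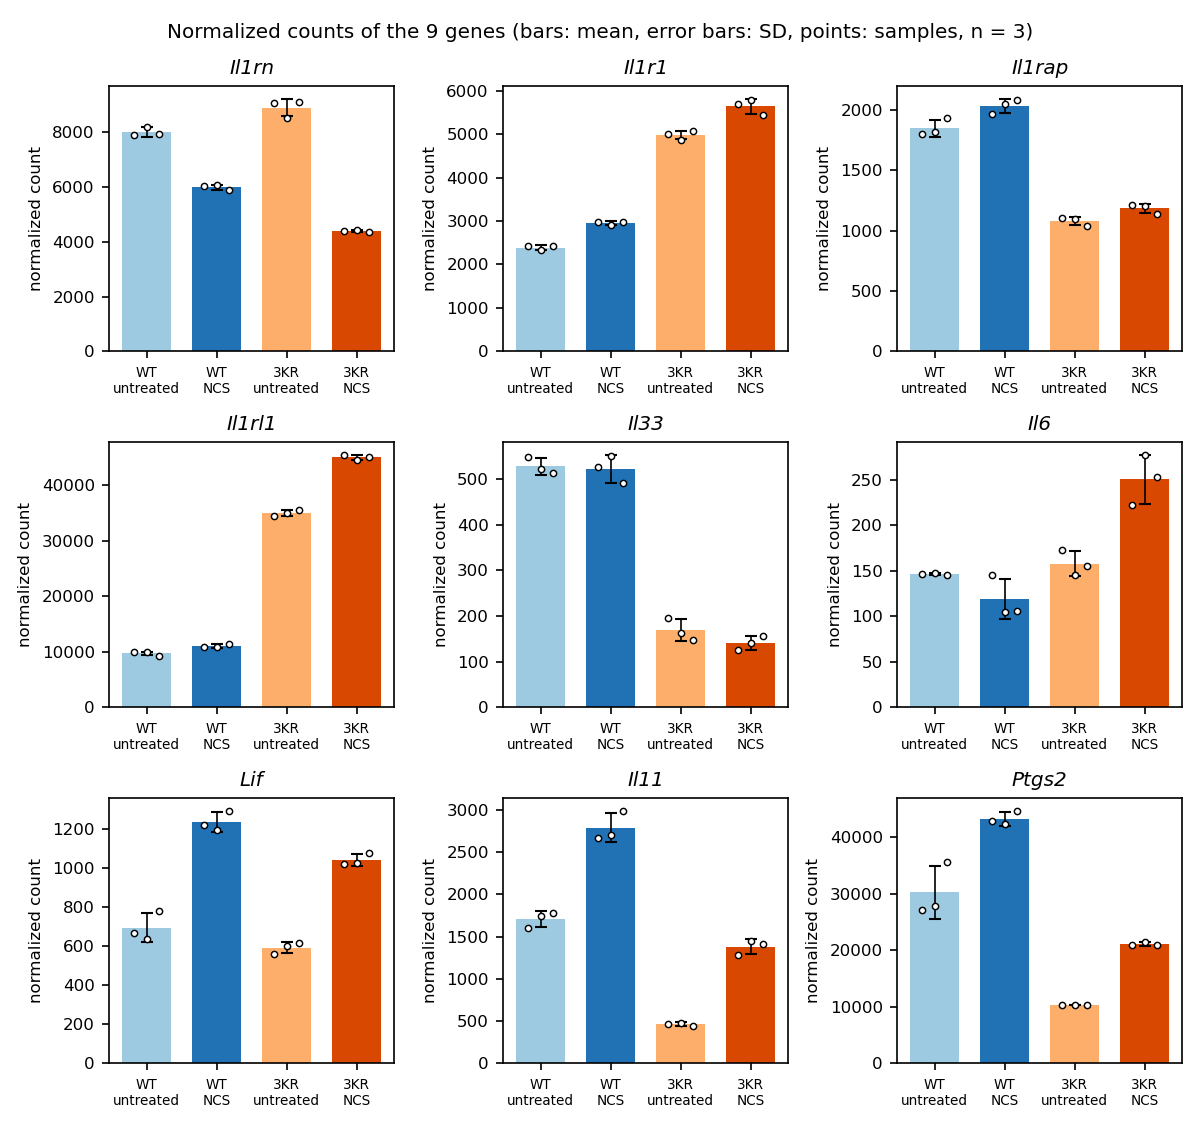
Normalized counts (y axis, from 0) of the 9 genes in wild-type (WT) and 3KR MEFs, untreated or after NCS, with bars for the mean, error bars for the SD and points for the 3 samples of each group. Il1rl1 rises from 9313 to 9907 in untreated wild-type samples to 34574 to 35556 in untreated 3KR samples, while Il11 and Ptgs2 are lowest in untreated 3KR samples and rise with NCS in both genotypes.

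Il1r1, the signaling receptor for IL-1, was at 2416, 2322 and 2426 normalized counts in untreated wild-type MEFs and at 4993, 4873 and 5074 in untreated 3KR MEFs. After NCS it was at 2981, 2897 and 2987 in wild-type and at 5695, 5779 and 5439 in 3KR MEFs. The 4 groups did not overlap, and both 3KR groups lay above both wild-type groups. The log2 fold change of 3KR over wild-type was 1.05 ± 0.03 (SE, n = 3 per group, as throughout) without treatment and 0.93 ± 0.03 after NCS, and that of NCS over no treatment was 0.30 ± 0.04 in wild-type and 0.18 ± 0.03 in 3KR MEFs. All of these passed the FDR threshold.

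Il1rap, the chain shared by the IL-1 and IL-33 receptors, went the other way between genotypes. Its counts were 1799, 1815 and 1929 in untreated wild-type and 1103, 1095 and 1041 in untreated 3KR MEFs. NCS-treated samples had 1968, 2047 and 2084 in wild-type and 1213, 1201 and 1139 in 3KR MEFs. Every 3KR sample was below every wild-type sample, with a log2 fold change of -0.78 ± 0.05 in both conditions. The rise with NCS was small, at 0.13 ± 0.04 in wild-type and 0.14 ± 0.05 in 3KR MEFs. Both calls were lost in several alternatives: in wild-type without untreated replicate 1 or 2 or NCS replicate 2 or 3 (0.12 to 0.13) or with only the samples compared (0.12), and in 3KR without untreated replicate 2 or 3 or NCS replicate 1 or 2 (0.11 to 0.15), without the count filter (0.13) or with DESeq2 (0.13). An unstranded count could mix in the antisense gene Gm20319, which had 0 to 3 counts per sample.

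Il1rn, which encodes the antagonist of IL1R1, had 7899, 8208 and 7923 normalized counts in untreated wild-type and 9063, 8529 and 9114 in untreated 3KR MEFs. With NCS, the counts were 6037, 6059 and 5889 in wild-type and 4383, 4413 and 4360.0 in 3KR MEFs. The 4 groups did not overlap: untreated 3KR samples were the highest and NCS-treated 3KR samples the lowest. The genotype difference was 0.15 ± 0.03 on the log2 scale without treatment and -0.45 ± 0.03 after NCS. NCS lowered Il1rn by a log2 fold change of -0.42 ± 0.03 in wild-type and -1.02 ± 0.03 in 3KR MEFs, which is 1.34-fold and 2.03-fold lower. Gene counts do not separate the secreted from the intracellular forms of the antagonist.

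Il1rl1, the receptor for IL-33 (ST2), was the listed gene with the largest gain in 3KR MEFs. Counts were 9907, 9901 and 9313 in untreated wild-type MEFs against 34574, 34965 and 35556 in untreated 3KR MEFs. After NCS they reached 10895, 10916 and 11503 in wild-type and 45536, 44566 and 45086 in 3KR MEFs. No 2 groups overlapped, and 3KR over wild-type was 1.85 ± 0.03 on the log2 scale without treatment (3.59-fold higher) and 2.02 ± 0.03 after NCS (4.06-fold higher). NCS over no treatment was 0.19 ± 0.03 in wild-type, or 0.13 without both wild-type replicate 3 libraries, and 0.37 ± 0.03 in 3KR MEFs. The counts do not separate the membrane receptor from the soluble decoy form made from the same gene.

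Mast cells and innate lymphoid cells are the blood cell types best known for this receptor, and their markers were near 0. The 8 mast cell markers summed to 14.1 to 54.9 normalized counts, with Tpsb2 and Fcer1a at 0 in every sample and the summed level lower in 3KR MEFs. The 7 T cell and innate lymphoid cell markers had higher sums in untreated 3KR than in untreated wild-type MEFs and overlapped between genotypes after NCS: they summed to 8.12 to 14.1 in untreated and 11.3 to 27.9 in NCS-treated wild-type MEFs, and to 16.1 to 25.5 and 22.3 to 42 in 3KR MEFs, with 3 or 4 of the 7 at 0 in all samples of a group. Il7r, the 1 marker of this list that was tested, was higher in 3KR MEFs without treatment (1.12, edgeR FDR = 0.0338) and after NCS (0.89, FDR = 0.0498). Macrophage markers also moved with the genotype. Of the 13, 12 were higher in untreated 3KR MEFs and 10 after NCS, against 22.1% and 22.9% of all genes. None of the 13 markers was at 0 in all samples of a group. Their sum was 4541 to 5356 in untreated and 4943 to 5732 in NCS-treated wild-type MEFs, and 8878 to 9072 and 8108 to 8272 in 3KR MEFs. Schwann cell markers moved the other way, with 3 of 5 lower in 3KR MEFs in both conditions, none at 0 and sums of 6216 to 6411 and 6228 to 6369 in wild-type against 1311 to 1330.2 and 1138 to 1172 in 3KR MEFs. Of all tested genes, 23.6% were lower in 3KR MEFs in each condition. The part of these marker lists in the genotype differences of the 9 genes was not tested.

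Il33, the ligand of ST2, was scarce where its receptor was abundant. In wild-type MEFs it had 548, 522 and 513 counts untreated and 527, 551 and 491 after NCS. The 3KR samples had 196, 162 and 148 counts untreated and 126, 140.0 and 157 after NCS. The genotypes did not overlap, while the treatments overlapped within each genotype. The log2 fold change of 3KR over wild-type was -1.66 ± 0.10 without treatment and -1.89 ± 0.10 after NCS, or 3.15-fold and 3.71-fold lower. NCS over no treatment was -0.02 ± 0.08 in wild-type and -0.25 ± 0.12 in 3KR MEFs, and neither passed the threshold, except that the value in 3KR MEFs passed it at -0.34 without untreated 3KR replicate 3.

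After NCS, 6 of the 9 genes rose in wild-type MEFs and 1 fell, where 14.3% of all tested genes rose and 12.4% fell. In 3KR MEFs 7 rose and 1 fell, against 15.8% and 15.0% of all genes. The median log2 fold change of the 9 genes was 0.19 in wild-type and 0.37 in 3KR MEFs, beside 0.01 and 0.00 over all genes. The difference between the genotypes in the NCS response passed the FDR threshold for 5 of the 9, higher in 3KR for 4 and lower for 1, where 1.86% and 1.87% of all genes were higher and lower. That difference was called for 572 genes in all, 1379 with the replicate number as a block and 1842 without both wild-type replicate 3 libraries, and the median of the 9 genes was 0.00.

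**Figure D3:**
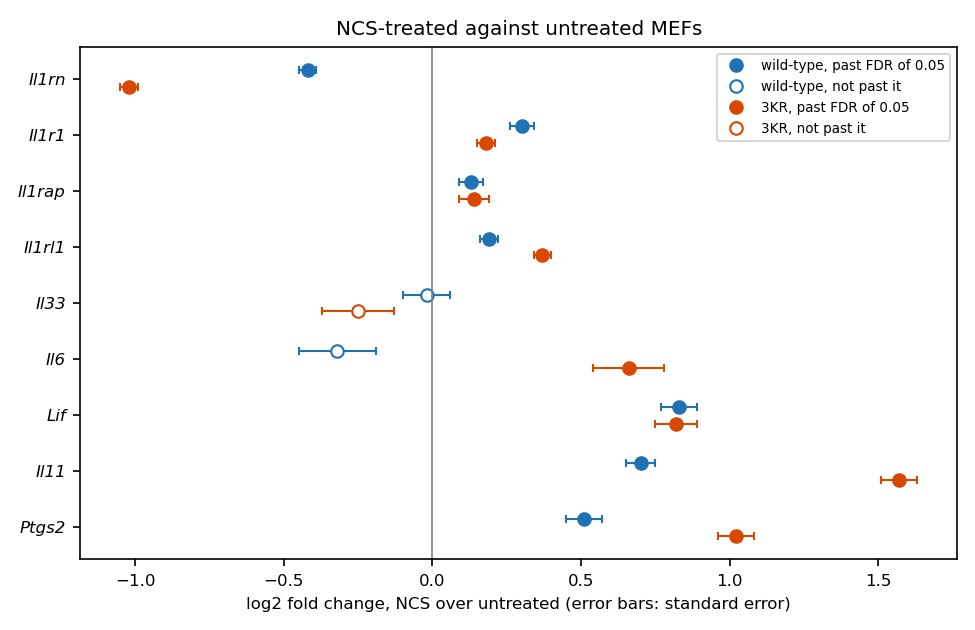
Log2 fold change of NCS-treated over untreated MEFs (x axis) for each of the 9 genes (y axis) in wild-type (blue) and 3KR MEFs (orange), with bars for the standard error and open points where the FDR of 0.05 was not passed. Il11, Ptgs2 and Il6 lie farther to the right in 3KR than in wild-type MEFs, Il1rn lies farther to the left, and the Lif points (0.83 and 0.82) nearly coincide.

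Il6 was the least abundant of the 3 IL-6 family cytokines and the listed gene that passed the threshold between genotypes after NCS but not before. Its counts were 147, 148 and 146 in untreated wild-type and 173, 146 and 155 in untreated 3KR MEFs, which overlapped. With NCS they were 145, 105 and 106 in wild-type and 223, 277 and 253 in 3KR MEFs, so that all NCS-treated 3KR samples lay above all others. The genotype difference was 0.10 ± 0.13 on the log2 scale without treatment, not past the threshold, and 1.08 ± 0.13 after NCS (2.11-fold higher). NCS over no treatment was 0.66 ± 0.12 in 3KR MEFs. In wild-type MEFs it was -0.32 ± 0.13, which did not pass the threshold, although it did at -0.48 without NCS-treated wild-type replicate 1.

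Lif, a gp130 cytokine that restrains differentiation of embryonic stem cells, responded to NCS alike in size in both genotypes. Its counts went from 666, 638 and 778 to 1219.8, 1191 and 1292 in wild-type MEFs. In 3KR MEFs they went from 559, 600.1 and 613 to 1019.8, 1026 and 1076. All NCS-treated samples lay above all untreated samples, with log2 fold changes of 0.83 ± 0.06 and 0.82 ± 0.07 and a difference between them of -0.01 ± 0.09. Across the alternatives, the value was 0.77 to 0.92 in wild-type and 0.78 to 0.85 in 3KR MEFs, and the difference was -0.10 to 0.04. The genotype differences were small, at -0.24 ± 0.07 without treatment and -0.25 ± 0.06 after NCS. The untreated call rested on wild-type replicate 3: without that library the value was -0.15 and no longer past the threshold, and without both wild-type replicate 3 libraries it was -0.14.

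Il11, a gp130 cytokine that acts on stromal cells, had the largest fall of the list in untreated 3KR MEFs and, in that genotype, the largest rise with NCS. Counts in untreated MEFs were 1603, 1743 and 1780.1 in wild-type and 469.6, 483 and 445 in 3KR. In NCS-treated MEFs they were 2672, 2705 and 2990.2 in wild-type and 1284, 1443 and 1414 in 3KR. The 4 groups did not overlap, and NCS-treated 3KR samples stayed below untreated wild-type samples. The log2 fold change of 3KR over wild-type was -1.88 ± 0.06 without treatment (3.68-fold lower) and -1.02 ± 0.05 after NCS (2.02-fold lower). NCS over no treatment was 0.70 ± 0.05 in wild-type and 1.57 ± 0.06 in 3KR MEFs, or 1.63-fold and 2.97-fold higher.

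Ptgs2 showed the same order of groups as Il11. Its counts were 27170.2, 27952 and 35689.6 in untreated wild-type and 10407, 10375 and 10390.1 in untreated 3KR MEFs. NCS-treated samples had 42833, 42455 and 44755 in wild-type and 20924, 21444 and 20952 in 3KR MEFs. No groups overlapped, and replicate 3 was the highest of the untreated wild-type samples. The log2 fold change of 3KR over wild-type was -1.55 ± 0.06 without treatment, or -1.41 without that library, and -1.04 ± 0.06 after NCS. NCS over no treatment was 0.51 ± 0.06 in wild-type, or 0.65 without it, and 1.02 ± 0.06 in 3KR MEFs.

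The log2 fold change with NCS was therefore higher in 3KR than in wild-type MEFs for Il6, by 0.98 ± 0.18, for Il11, by 0.87 ± 0.08, for Ptgs2, by 0.51 ± 0.08, and for Il1rl1, by 0.18 ± 0.04. Il11, Ptgs2 and Il1rl1 rose in both genotypes. Il6 rose in 3KR MEFs (0.66 ± 0.12), while its wild-type value was -0.32 ± 0.13 and did not pass the threshold. Il1rn fell more with NCS in 3KR than in wild-type MEFs, with a log2 difference of -0.60 ± 0.05. The difference for Ptgs2 was 0.37 without untreated wild-type replicate 3. The call for Il1rl1 was lost, at 0.16 to 0.17, without NCS-treated wild-type replicate 1 or 2, untreated 3KR replicate 1 or NCS-treated 3KR replicate 1 or 3. The differences for Il1r1 (-0.12 ± 0.05), Il1rap (0.00 ± 0.06), Il33 (-0.24 ± 0.14) and Lif (-0.01 ± 0.09) did not pass the threshold, though that for Il1r1 did at -0.13 without both wild-type replicate 3 libraries.

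Other genes of the same pathways were taken from lists that leave out the 9 genes. Each is given with its log2 fold change and, in edgeR, its FDR (Benjamini-Hochberg) across every gene tested. The lists were also chosen with earlier results of these data known, and most genes were named by their low p-values. The FDRs therefore describe these samples and are not independent evidence for a pathway. Over all tested genes, 22.1% were higher and 23.6% lower in untreated 3KR MEFs, and these shares stand beside each untreated list count below. Of the 8 other IL-1 family receptors and decoys, 6 were tested, of which 2 were higher and 2 lower in 3KR MEFs without treatment, and the median was -0.34. The IL-36 receptor Il1rl2 was higher (1.16, FDR = 3.58e-12), as was the decoy receptor Il1r2 (2.08, FDR = 6.55e-04), which was scarce at 5.42 ± 1.64 (SD) normalized counts in wild-type and 23.3 ± 3.22 in 3KR MEFs. The IL-18 receptor chain Il18rap was lower (-0.59, FDR = 4.24e-05). Of 15 genes of IL-1 receptor signaling, 6 were higher and 3 lower without treatment, with a median of 0.06. Among them, Irak3, an inhibitor of the pathway, was higher (0.81, FDR = 7.39e-06), as was the inflammasome sensor Nlrp3 (1.71, FDR = 9.86e-06), while the inhibitor Tollip was lower (-0.27, FDR = 1.19e-06). Nlrp3 was scarce, at 16 ± 5.55 (SD) normalized counts in untreated wild-type and 54.1 ± 3.95 in untreated 3KR MEFs. Macrophage markers were higher in the same 3KR samples, as given above, and their part in this list was not tested. After NCS the value for Irak3 was 0.11 and did not pass the threshold (FDR = 0.505). Its response to NCS was lower in 3KR than in wild-type MEFs (-0.70, FDR = 0.026), the only difference in response called in this list. Of 8 other IL-1 family ligands, Il18 was the only gene tested, and it passed the threshold in none of the 5 comparisons.

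Il1r2, Il1r1, Il1rl2, Il1rl1, Il18r1 and Il18rap lie side by side on chromosome 1, where the flanking genes are Map4k4 on one side and Slc9a4 and Slc9a2 on the other. Of the 7 tested genes of this stretch, 4 were higher in untreated 3KR MEFs and 3 lower, against 22.1% and 23.6% of all genes. The higher genes were the neighbors Il1r2, Il1r1, Il1rl2 and Il1rl1, of which Il1r1 and Il1rl1 are listed genes. The lower genes were Il18rap, the kinase gene Map4k4 (-0.32, FDR = 8.73e-09) and the sodium-proton exchanger Slc9a2 (-1.76, FDR = 1.83e-04). After NCS, the genotype difference of Il1r2 did not pass the threshold (1.07, FDR = 0.057). Il18r1 and Slc9a4 were too scarce to be tested.

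Receptors of the IL-6 family were mostly higher in 3KR MEFs. All 8 were tested, and 7 were higher and 1 lower without treatment, against 22.1% and 23.6% of all genes, with a median of 0.48. They included gp130 itself, Il6st (0.44, FDR = 1.43e-11), the oncostatin M receptor Osmr (0.35, FDR = 3.06e-09) and Il31ra (3.03, FDR = 3.17e-10), which had 11.5 ± 1.63 (SD) normalized counts in wild-type and 94.1 ± 5.87 in 3KR MEFs. NCS lowered Il6st in 3KR MEFs (-0.28, FDR = 1.25e-07), and its response differed between genotypes (-0.30, FDR = 1.52e-04). Of 9 genes of gp130 signaling, 4 were higher and 2 lower, with a median of 0.19. Socs3, the feedback inhibitor that gp130 induces, was higher in 3KR MEFs without treatment (0.65, FDR = 9.05e-12) and after NCS (0.86, FDR = 2.19e-14) and rose with NCS in wild-type (0.57, FDR = 6.63e-10) and 3KR MEFs (0.77, FDR = 9.20e-13). Of 9 other IL-6 family ligands 4 were tested, and of these Clcf1 was lower in untreated 3KR MEFs (-0.42, FDR = 3.47e-08), rose with NCS in wild-type (0.31, FDR = 8.59e-06) and in 3KR MEFs (0.63, FDR = 1.31e-10) and rose more in the latter (difference 0.33, FDR = 0.00273).

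Around Ptgs2, the list of 19 genes of prostaglandin synthesis, transport and reception had 9 higher and 4 lower genes in 3KR MEFs without treatment, and its median was 0.11. The shares over all tested genes were 22.1% and 23.6%. Receptors were among the higher genes: the prostaglandin F receptor Ptgfr went from 177 ± 14.4 (SD) to 1244 ± 19.3 normalized counts (2.80, FDR = 1.09e-19), and the thromboxane receptor Tbxa2r from 125 ± 16.3 to 529 ± 41.5 (2.07, FDR = 2.63e-12). The prostacyclin synthase Ptgis was lower, as Ptgs2 was (-0.59, FDR = 1.80e-11). The prostaglandin E synthase Ptges rose with NCS in wild-type (0.30, FDR = 2.23e-05) and in 3KR MEFs (0.38, FDR = 7.62e-07). Hpgd, which inactivates prostaglandins, fell with NCS in 3KR MEFs (-1.18, FDR = 7.10e-05), from 234 ± 21.2 (SD) normalized counts. In wild-type MEFs, where its untreated level was 40.3 ± 23.6, the value was -0.77 and did not pass the threshold (FDR = 0.0778). The difference in response of Hpgd did not pass it either (-0.41, FDR = 0.657). The difference in response passed the threshold for 2 of the 19, Slco2a1 (0.30, FDR = 0.0156) and Pla2g4a (0.16, FDR = 0.0497), both higher in 3KR MEFs. Of all tested genes, 1.86% were higher for this difference.

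Of 20 genes that IL-1 is known to induce in fibroblasts, 15 were tested. Of these, 12 were higher and 2 lower in untreated 3KR MEFs, against 22.1% and 23.6% of all genes. The median of the 15 was 0.97. The 3 genes with the lowest p-values encode chemokines, with Cxcl5 at 210.1 ± 21.1 (SD) normalized counts in wild-type and 3345 ± 114 in 3KR MEFs (3.98, FDR = 1.04e-23), Cxcl1 at 3.09 (FDR = 4.00e-15) and Ccl7 at 1.60 (FDR = 9.75e-17). Il11 and Ptgs2, which IL-1 also induces in fibroblasts, were lower in the same samples. Macrophages express several of these chemokines too, and their markers were higher in the same samples, as given above, and their part in this result was not tested. After NCS, 13 of the 15 were higher in 3KR MEFs and 1 lower, against 22.9% and 23.6% of all tested genes. NCS raised 5 of the 15 in wild-type and 8 in 3KR MEFs, where 1 fell, with medians of 0.02 and 0.19. Over all tested genes, NCS raised 14.3% in wild-type and 15.8% in 3KR MEFs, where 15.0% fell. Icam1, an adhesion molecule, rose in both (1.10, FDR = 3.89e-11, and 0.96, FDR = 2.17e-10). The 2 lower genes in untreated 3KR MEFs were Tnfaip3 (-1.25, FDR = 1.90e-11), which was also lower after NCS (-0.94, FDR = 2.33e-09), and Nfkbiz. Nfkbiz, a nuclear cofactor of NF-kappaB that is needed for Il6 induction, was at 976 ± 17.6 (SD) normalized counts against 1321 ± 86.7 in wild-type (-0.44, FDR = 3.31e-07). After NCS it was higher in 3KR MEFs by 0.19 (FDR = 0.004), at 1881 ± 96.7 against 1653 ± 53.8. From that lower untreated level it rose by 0.95 in 3KR MEFs (FDR = 2.41e-12), and it rose by 0.32 in wild-type MEFs (FDR = 4.09e-05), with a difference of 0.62 (FDR = 1.29e-05). For the difference in response, 1 of the 15 genes was higher in 3KR MEFs, Nfkbiz, and 1 was lower, Vcam1 (-0.23, FDR = 0.0279). Of all tested genes, 1.86% were higher and 1.87% lower.

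**Figure D4:**
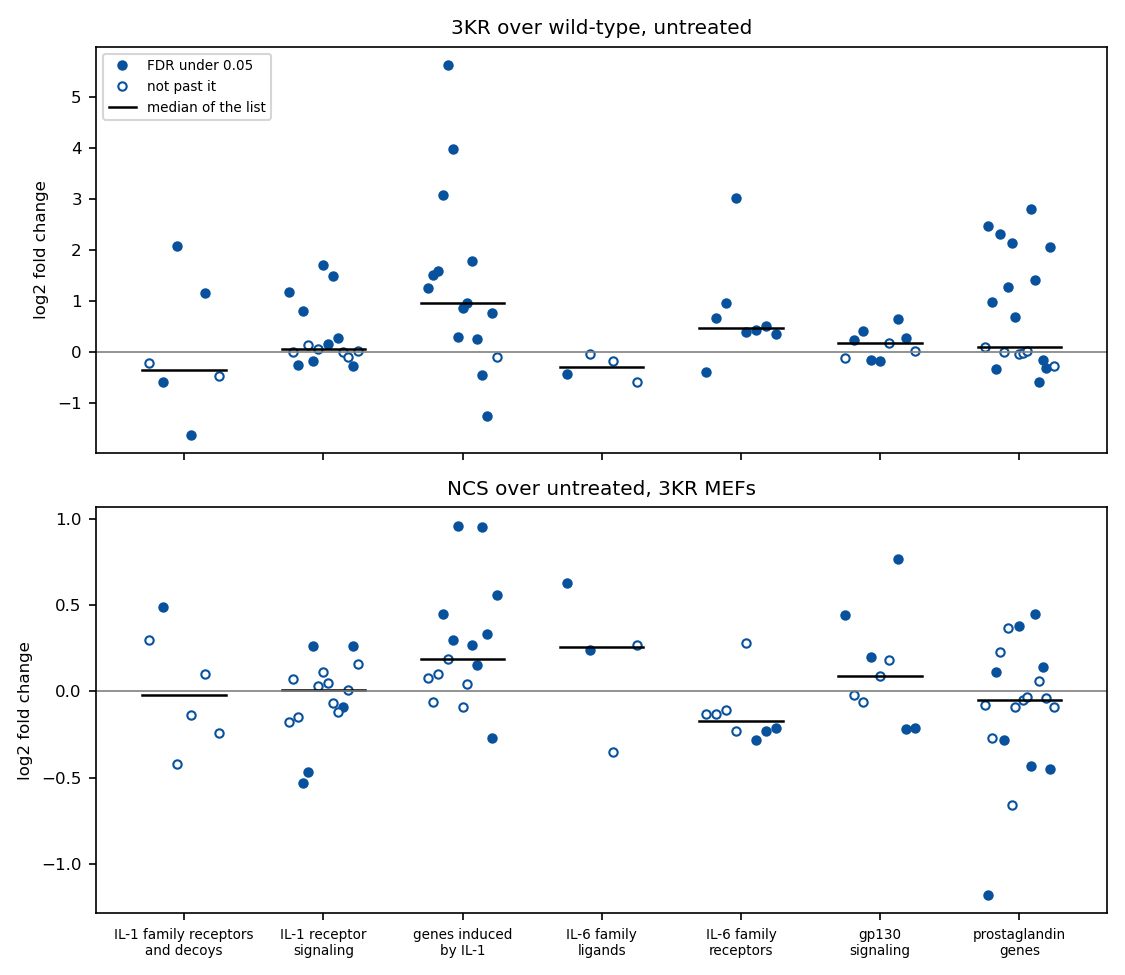
Log2 fold change (y axis) of each tested gene in 7 lists (x axis), which leave out the 9 listed genes, for untreated 3KR over wild-type MEFs (top) and for NCS over no treatment in 3KR MEFs (bottom), with filled points at an FDR under 0.05 and lines at the list medians. Among untreated MEFs the medians of the IL-1-induced genes (0.97) and the IL-6 family receptors (0.48) lie highest, and after NCS in 3KR MEFs no list median is as far from 0.

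The tested genes most like each listed gene over the 12 samples, by Pearson's r of log2 CPM among 11595 candidates, mirrored the order of the 4 groups, since all samples share that structure. They were Pde4b (0.999) and Tnc (0.996) for Il1rl1, Lgals3 (0.993) and Gas6 (0.993) for Il1r1, Arnt2 (0.997) and Pea15a (0.997) for Il1rap, and Cacna2d1 (0.997) and Egflam (0.996) for Il33. For Il11 they were Fkbp1a (0.994) and Inf2 (0.994), for Ptgs2 Plaur (0.996) and Gcnt4 (0.996), and for Lif Tulp4 (0.994) and Susd6 (0.991). The closest genes were less alike for Il1rn, with Tmem230 (0.970) and Meis2 (0.967), and for Il6, with Zfp975 (0.906) and Pdia6 (0.905). Among the listed genes, r was 0.99 between Il11 and Ptgs2 and between Il1r1 and Il1rl1, and -0.99 between Il1rl1 and Il33.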

How the data were processed

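Total RNA from 12 MEF samples had been made into stranded mRNA libraries. The authors deposited raw read counts per Ensembl gene, 1 file per sample. The submitters' notes name TopHat, HTSeq, DESeq and the build mm9, without versions, and whether the counting used the strand is not given in the sources used here. Of the identifiers, 32919 matched GENCODE M21 (GRCm38), which gave symbols, chromosomes and exon lengths, and 5072 did not.

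Groups and replicate numbers came from the sample titles. Counts were filtered with filterByExpr and tested with edgeR 4.0.16 (R 4.3.3): TMM normalization, 1 coefficient per group, all 12 samples, quasi-likelihood F tests, two-sided, with Benjamini-Hochberg adjustment over 15327 genes and a threshold of 0.05. The standard error (SE) of a log2 fold change was its absolute value divided by the square root of F. It thus rests on a dispersion fitted to all 12 samples and partly pooled across genes, not on the spread of 1 gene alone. The common biological coefficient of variation was 3.95%. Normalized counts are counts divided by DESeq2 1.42.0 size factors. At the depth of these libraries (33203757 to 45279321 counted reads), a floor of 3 counts is 0.0663 to 0.0904 CPM, for counting error only. The test was checked on simulated counts.

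The 9 genes and all lists were chosen with earlier results of these data known. Named beside the 9 genes are up to 3 genes with the lowest p-values per list and comparison, the receptor cluster, 2 similar genes for each, and cell type markers. The tests of endothelial markers (0 of 4 tested higher and 1 lower in untreated 3KR MEFs) and of epithelial markers (2 of 3 higher, 1 lower) were also run, with summed levels of at most 257 and 126 normalized counts.

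Deviations of untreated and NCS samples with the same number correlated at 0.136 to 0.325 in wild-type MEFs and at -0.091 to 0.006 in 3KR MEFs (11758 genes), and 3 of the 6 untreated samples correlated best with their own number. The pairing therefore comes from wild-type samples alone, mostly replicate 3. Alternatives were DESeq2 size factors, the DESeq2 Wald test, no count filter, a minimum of 10 counts per sample, a fit of the compared groups alone, a replicate block and each sample left out. Leaving out both wild-type replicate 3 libraries was added after seeing the data. Levels were also scaled by TMM and by library total.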

Additional observations from a re-analysis of the deposited data

Results flagged for a closer look

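The difference between the genotypes in the response to NCS passed an FDR of 0.05 in edgeR for 5 of the 9 genes. These genes were chosen with such values known. Of all tested genes, 1.86% were higher and 1.87% lower for this difference. The response in 3KR minus that in wild-type MEFs was 0.98 ± 0.18 (SE, log2 scale) for Il6, where NCS-treated wild-type samples lay at or below 145 normalized counts and NCS-treated 3KR samples at or above 223. It was 0.87 ± 0.08 for Il11 and 0.51 ± 0.08 for Ptgs2, which rose in both genotypes and from a lower untreated level in 3KR MEFs. It was 0.18 ± 0.04 for Il1rl1, a call that was lost when any 1 of 5 samples was left out. For Il1rn, which fell in both genotypes, it was -0.60 ± 0.05.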

How the results depend on the processing

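No fold change of the 9 genes that passed the threshold changed sign. Of those that did not pass it, 3 ranged across 0: Il33 for NCS in wild-type MEFs (-0.06 to 0.02), and the difference in response of Il1rap (-0.03 to 0.03) and Lif (-0.10 to 0.04). Of 621 fold changes recomputed, 600 moved by less than the standard error of the value with all samples and 21 by more. Of 72 levels, 65 moved by less than the SD between samples and 7 by more. The calls that changed stand beside their genes above: those of Il1rap for NCS, Lif without treatment, Il1rl1 and Il1r1 for the difference in response, and Il6 and Il33 for NCS. Among the 9 genes, leaving out 1 sample gave 7 to 8 calls between untreated genotypes (8 with all samples), 9 after NCS in each case, 6 to 8 for NCS in wild-type and 7 to 8 in 3KR MEFs, and 4 to 5 for the difference in response. Over all genes, the untreated genotype comparison gave 6266 to 6871 calls (7007 with all samples), that after NCS 6275 to 6839 (7131), NCS in wild-type 3292 to 4604 (4090) and NCS in 3KR 3788 to 3892 (4721).

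The difference in response was the least stable count over all genes. It was 572 with all samples, 345 to 1159 with 1 sample left out (1159 without untreated wild-type replicate 3 and 345 without untreated 3KR replicate 3), 1379 with the replicate block and 1842 without both wild-type replicate 3 libraries, and the cause was not tested. The replicate block changed no call of the 9 genes. With at least 10 counts in every sample, 415 genes were higher and 265 lower for this difference, and NCS in wild-type MEFs gave 1992 higher and 2200 lower, in place of 2189 and 1901, or 1462 and 1626 with only the samples compared. In each group Il6 and Il33 had the fewest counts of the 9, and their errors were the widest. The part of depth in this was not tested.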
